A study of Drosophila melanogaster with 10 samples.

Results

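Proteasome genes were followed in whole fruit flies (Drosophila melanogaster) over a course of hours without dietary yeast. They were taken as every gene whose current symbol begins with Prosalpha, Prosbeta, Rpn or Rpt, the Rpn and Rpt names followed by a digit. The gene table holds 48 such genes, and 39 of them had a probe set of their own, out of 10844 genes named on the array. Of these, 6 are alpha and 6 are beta subunits of the core particle, 4 are Rpt and 10 are Rpn subunits of the regulatory particle, and 13 are paralogs whose symbol ends in T or R with or without a digit. Prosalpha1 and its paralog Prosalpha1R share 1 probe set, which was left out because it cannot be given to either gene. No probe set was named here for Prosbeta1, Prosbeta5R2, Rpn9, Rpn10, Rpt1, Rpt6 and Rpt6R. Where a gene had more than 1 probe set, the brightest was used.

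There was 1 group of flies, called No Yeast (NY). Larvae had ordinary food until early in the third instar and food without yeast from then on, so every array comes from animals that completed development without yeast, and no fly in these data was given it back. Sampling started when the adults were 4 days old. Each array holds RNA of whole animals at 1 hour, with 10 arrays at hours 1, 2, 3, 5, 6, 7, 9, 10, 11 and 12 and no repeat of any hour. The labels do not state how many flies an array holds, nor their sex or genotype, and with 1 array an hour an hour cannot be told apart from its sample. Among markers of the germlines, the sperm tail gene Mst84Dc read 336 to 671 and the oocyte gene osk 366 to 673. Both lay above every control probe set for bacterial, mouse or yeast sequence (13.8 to 136). They are among the brighter markers: 9 of 23 testis and 8 of 10 female germline markers were bright enough to be tested. Most testis markers did not stand clear of the controls. Mst84Dd read 754 at hour 7 and 119 to 130 on the other arrays, and dj 130 at hour 7 and 10.4 to 13.8 elsewhere.

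The proteasome is the large protease that degrades proteins tagged with ubiquitin. Its core particle stacks rings of alpha subunits, which gate the entrance, on rings of beta subunits, of which beta1, beta2 and beta5 cut peptide bonds. The regulatory particle caps the core: its Rpt subunits are a ring of ATPases that unfold the substrate and push it in, and its Rpn subunits bind ubiquitin, hold the particle together or, in the case of Rpn11, cut the ubiquitin chain off. In Drosophila several subunits have a second gene used in the male germline, where proteasomes with these paralogs serve sperm maturation.

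The arrays of hours 3 and 10 stood apart from the rest over all genes. Hour 3 was the highest array for 27.9% of the 13966 probe sets that are not controls, and hour 10 the lowest for 19.3%. The hour 3 array had the highest median intensity, 120, where the next array had 116. The hour 10 array also had the highest ratio of 3' to 5' signal for Gapdh, 4.77, where the lowest array had 2.88. It had the lowest such ratio for eIF4a, 2.94 against 3.13 to 4.80. For actin the hour 3 array had the second highest such ratio, 2.52, after 2.56 at hour 6. These ratios move with RNA degradation and labelling. Values below that rest on either array are given with that in view, and the part of these ratios in them was not tested.

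No proteasome gene passed a test for change over the course. All 26 constitutive subunits and 8 of the 13 paralogs were bright enough to be tested, together 34 genes. With limma, 0 of the 34 had a linear trend over the hours at a Benjamini-Hochberg adjusted p under 0.05, beside 0.0477% of all 8380 tested probe sets. The smallest adjusted p among them was 0.937. Setting hours 7 to 12 against hours 1 to 6, 5 arrays each, also called 0 of 34, beside 0.0119%, with a smallest adjusted p of 0.747. A smooth curve (natural spline with 3 degrees of freedom) called 0 of 34, beside 0% of all tested. At an unadjusted p under 0.05 the trend picked 0 of 34 members, beside 3.71% of all tested, and the later against earlier comparison picked 2, Prosbeta4 and Rpn5, beside 6.25%. Both counts are near or below the share over all genes.

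**Figure D1:**
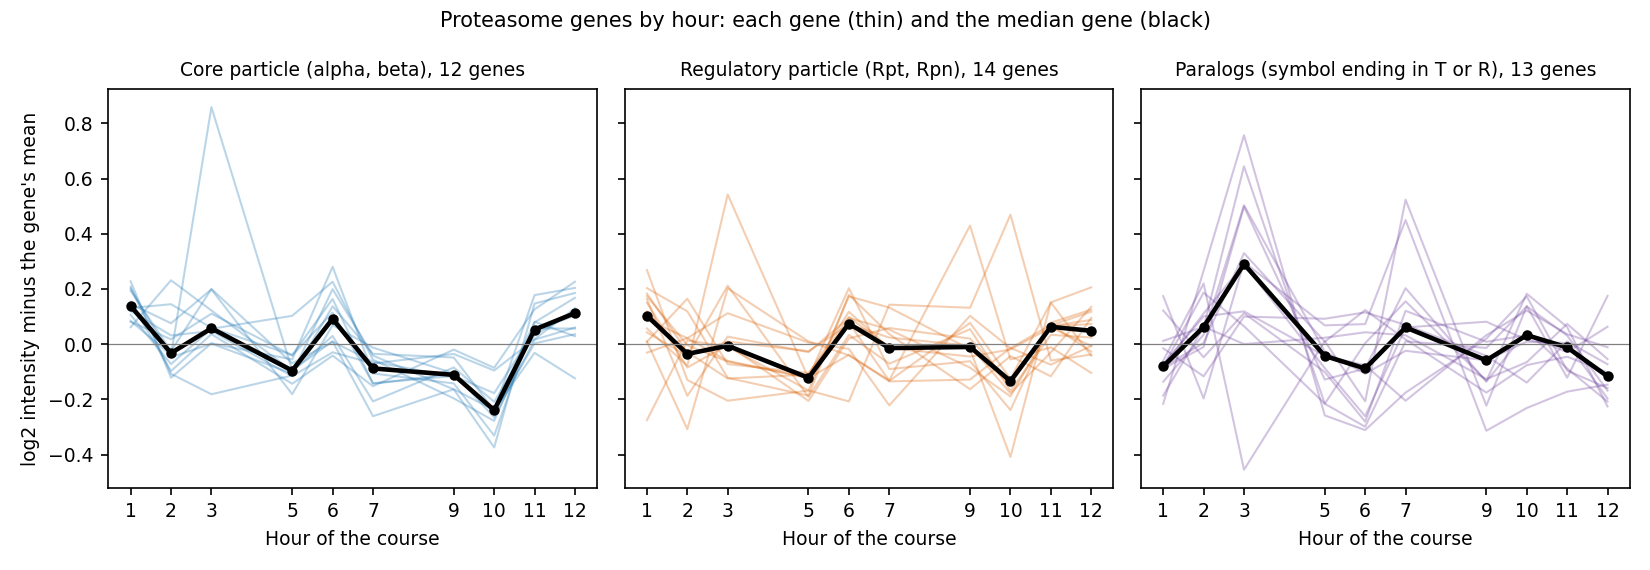
Level of each of the 39 proteasome genes by hour, as log2 intensity minus the gene's own mean, in 3 panels for 12 core, 14 regulatory and 13 paralog genes; thin lines are genes and the black line with points is the median gene. The core panel dips at hour 10, single lines jump at hour 3, and no panel climbs or declines steadily.

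The alpha subunits form the gated outer rings. Their range over the arrays was ordinary: the highest to lowest ratio had a median of 1.35, beside 1.33 for all tested probe sets. Among the 6, this ratio of the highest to the lowest array lay between 1.19, for Prosalpha4, and 1.38, for Prosalpha5. Prosalpha4 had intensities of 312, 320, 307, 332 and 359 at hours 7, 9, 10, 11 and 12, against 356, 335, 339, 303 and 321 at hours 1, 2, 3, 5 and 6. These sets overlap almost entirely. Prosalpha5 read 458, 429, 384, 467 and 481 at the later hours, against 511, 487, 530, 407 and 484 at the earlier ones. Its lowest array was hour 10 and its highest hour 3, and the fitted change between hours 1 and 12 was -0.20 ± 0.13 (SE) on the log2 scale (limma, adjusted p = 0.937).

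Prosalpha2 gave intensities of 749, 816, 749, 885 and 941 at hours 7 to 12, against 903, 1016, 942, 809 and 883 at hours 1 to 6. Its hour 7 and hour 10 arrays lay below the lowest earlier one, and the other later arrays lay inside the earlier range. The later minus earlier difference was -0.14 ± 0.09 (SE, log2; limma adjusted p = 0.816). Prosalpha7 read 181, 174, 161, 200 and 193 at the later hours and 216, 186, 217, 180 and 190 at the earlier hours, with a fitted change of -0.18 ± 0.12 (SE, log2; limma adjusted p = 0.937). Its second, dimmer probe set went another way from hour to hour: it read 141 at hour 10, close to its median of 134, where the brighter one had its lowest value. Prosalpha3 spanned 284 to 388 and Prosalpha6 spanned 244 to 317, both with fitted changes just above 0.

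The beta subunits carry the active sites, and all 6 had a fitted change below 0, where 63.4% of all tested probe sets did. None of the 6 passed the test. Prosbeta4, a structural member of the ring, had the smallest p of all members in the later against earlier comparison. It read 532, 545, 495, 588 and 602 at hours 7, 9, 10, 11 and 12, against 643, 649, 612, 571 and 658 at hours 1, 2, 3, 5 and 6. Only the hour 5 value of the earlier set fell among the later ones. The means were 552 ± 43.4 later and 626 ± 35.4 earlier (SD, n = 5 arrays each), a difference of -0.18 ± 0.07 (SE, log2) with limma's adjusted p = 0.747.

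The catalytic subunits Prosbeta5, which cuts after hydrophobic residues, and Prosbeta2, which cuts after basic ones, moved over a wider range. They and Prosbeta7 were chosen for description after their values were seen. Prosbeta5 read 457, 359, 391, 376, 474, 363, 354, 310, 412 and 439 at hours 1, 2, 3, 5, 6, 7, 9, 10, 11 and 12. It was high at hours 1, 6, 11 and 12 and lowest at hour 10. Prosbeta7 had the same high and low arrays, with 453, 453, 437 and 449 at hours 1, 6, 11 and 12, 304 at hour 10, and 352 to 395 on the others. Prosbeta2 had its peak of 610 at hour 6 and its lowest value, 430, at hour 10. Prosbeta3, the steadiest of the beta genes with a highest to lowest ratio of 1.22, also had its lowest value there, at 475, and otherwise lay between 487 and 581.

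Prosbeta6 had the widest range of any proteasome gene, 2.17-fold, through 1 array. Its intensity was 1075 at hour 3, against 495 to 628 on the other 9 arrays, which is 1.94 times their median. Its second, dimmer probe set was also highest there, at 88.4 against 38.2 to 53.7, all inside the range of the control probe sets. The linear fit gave Prosbeta6 a change of -0.44 ± 0.25 (SE, log2; limma adjusted p = 0.937), and leaving out the hour 3 array made it -0.18.

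**Figure D2:**
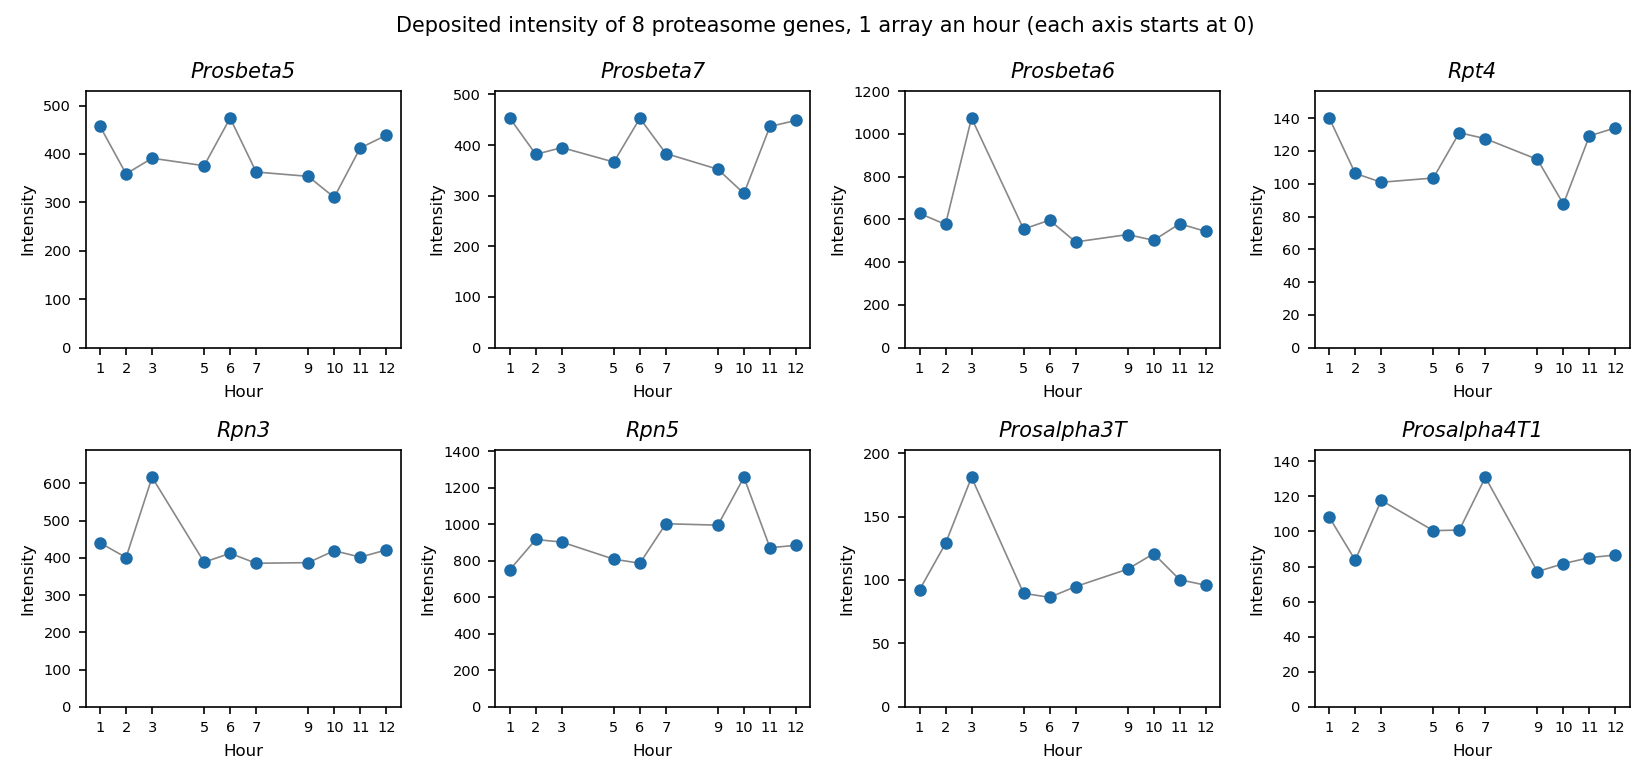
Deposited intensity by hour of Prosbeta5, Prosbeta7, Prosbeta6, Rpt4, Rpn3, Rpn5, Prosalpha3T and Prosalpha4T1, 1 point per array, each axis starting at 0. Prosbeta5 and Prosbeta7 share high arrays at hours 1, 6, 11 and 12; Prosbeta6, Rpn3 and Prosalpha3T each have 1 high array at hour 3, Rpn5 has 1 at hour 10, and Prosalpha4T1 is highest at hour 7 with hour 3 next.

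The 4 Rpt ATPases that could be measured were all above their own medians at hours 1, 6 and 11, beside 58.3%, 57.9% and 52% of all tested probe sets. They were all below them at hours 5 and 10, beside 54% and 60.7%, and their fitted slopes were near 0. Rpt4 varied most, reading 140, 106, 101, 103, 131, 128, 115, 87.6, 129 and 134 at hours 1, 2, 3, 5, 6, 7, 9, 10, 11 and 12. Its hour 10 array was 0.687 times the median of the other 9, the lowest such ratio of any constitutive subunit, and yet the fitted change over the course was 0.03 ± 0.19 (SE, log2; limma adjusted p = 0.985). Rpt2 read 184, 187, 166, 206 and 213 at the later hours and 221, 195, 187, 180 and 225 at the earlier hours. Rpt3, with 154 at hour 10 and 154 at hour 2, never exceeded 196. Rpt5 was lowest at hour 5, at 203, and highest at hour 3, at 268. For Rpt2, Rpt3 and Rpt5 the fitted changes were -0.05 ± 0.13, -0.02 ± 0.12 and -0.09 ± 0.12 (SE, log2), none past the test.

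Rpn5, a scaffold subunit of the lid, stood out in the other direction. It read 1002, 994, 1256, 871 and 884 at hours 7, 9, 10, 11 and 12, against 750, 916, 902, 808 and 786 at hours 1, 2, 3, 5 and 6. Its highest array was hour 10, where most other subunits were low, at 1.42 times the median of the other 9. The later minus earlier difference was 0.26 ± 0.10 (SE, log2), with an unadjusted p of 0.0291 and an adjusted p of 0.758 in limma. Its fitted trend of 0.28 ± 0.18 (SE, log2) became 0.15 without the hour 10 array. The Gapdh and eIF4a ratios were at their extremes on that same array, and their part in the Rpn5 value was not tested.

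Rpn8, the lid partner of the deubiquitinase Rpn11, varied least of the constitutive subunits. It read 210, 206, 210, 222 and 212 at the later hours, against 226, 216, 204, 195 and 228 at the earlier hours, a highest to lowest ratio of 1.17. Rpn11 itself spanned 161 to 206. Rpn3, Rpn2 and Rpn1 were singled out after their values were seen. The lid subunit Rpn3 read 616 at hour 3, against 386 to 440 on the other arrays. The base scaffold Rpn2 reached 429 at hour 9, against 258 to 367, and Rpn1, which docks ubiquitin-carrying shuttle proteins, had its lowest value of 294 at hour 7, against 336 to 371. The ubiquitin receptor Rpn13 spanned 353 to 439, Rpn12 spanned 198 to 249, Rpn6 spanned 288 to 377 and Rpn7 spanned 295 to 362.

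**Figure D3:**
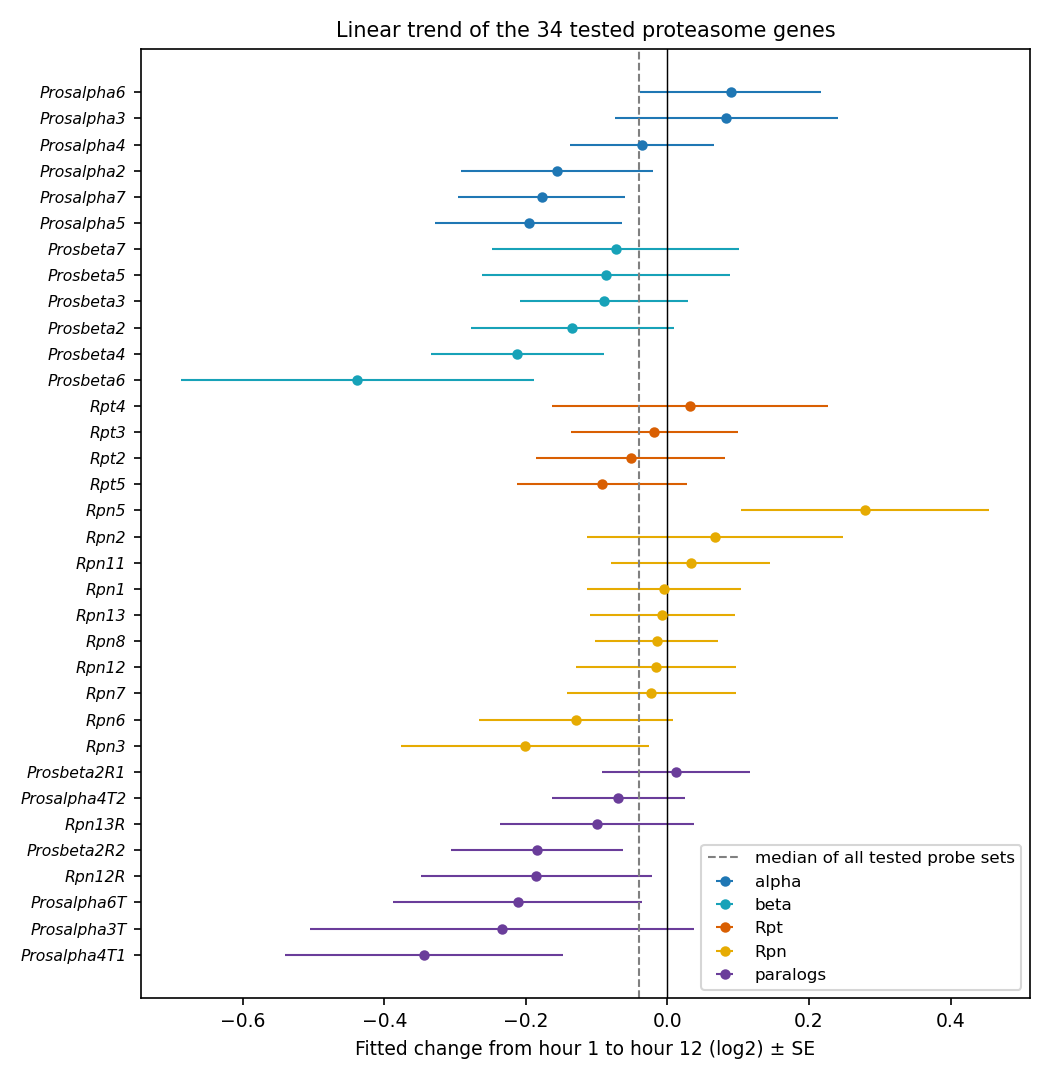
Fitted linear change between hours 1 and 12 on the log2 scale, with its standard error as a bar, for the 34 tested proteasome genes grouped as alpha, beta, Rpt, Rpn and paralogs. The dashed line is the median of all 8380 tested probe sets, -0.04; Prosbeta6 at -0.44 and Rpn5 at 0.28 are the outermost points and no gene passed the test.

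Over the genes of each particle, the fitted trend had a median of -0.11 for the 12 core genes and -0.02 for the 14 regulatory genes (log2 between hours 1 and 12), beside -0.04 for all tested probe sets. It was below 0 for 10 of 12 core and 10 of 14 regulatory genes. In the later against earlier comparison the medians were -0.12 for the core and -0.02 for the regulatory particle, beside -0.03 for all. The core genes stood lower relative to the regulatory genes at hours 7, 9 and 10 than on any other array. At hour 10 the contrast lay with the Rpn genes: the mean log2 deviation was -0.23 for the core, -0.25 for Rpt and -0.03 for Rpn genes. Part of it came from Rpn5: the mean of the regulatory genes there was -0.09 with Rpn5 and -0.13 without it. After quantile normalization the medians of the 2 particles at hour 10 lay closer together. Over all regulatory genes, the mean log2 deviation of the core minus that of the regulatory genes was -0.08, -0.13 and -0.14 at hours 7, 9 and 10, and lay between 0.03 and 0.09 at the other 7. These differences over the 2 particles are descriptions with no test, because the genes of 1 array share that array.

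Some high and low arrays were common to the core and regulatory genes and others were not. At hour 1, 24 of the 26 constitutive genes lay above their own median, where 58.3% of all tested probe sets did. At hour 6 the count was 20 of 26, beside 57.9%, and 13 of 26, beside 46.6%, after quantile normalization. The 3' to 5' ratios of actin and eIF4a were highest on the hour 6 array, at 2.56 and 4.80, and their part in that count was not tested. At hours 11 and 12 the count above the median was again 20 of 26 at each, beside 52% and 47.8%. Both particles were low at hours 5 and 10: at hour 5, 3 of 26 lay above their median, beside 46%, and at hour 10, 2 of 26, beside 39.3%, with Rpn5 and Rpn3 as the exceptions. At hours 7 and 9 the core was low and the regulatory particle was near the share over all genes, with 1 of 12 core and 6 of 14 regulatory genes above their median at both hours, beside 50.8% and 44%. At hour 3, 10 of 12 core and 6 of 14 regulatory genes did, beside 59.3%. The median core gene was 0.08 (log2) above the median of its other arrays there, and below it after quantile normalization. The genes are not independent replicates, and with 1 array an hour no test of an hour is possible.

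**Figure D4:**
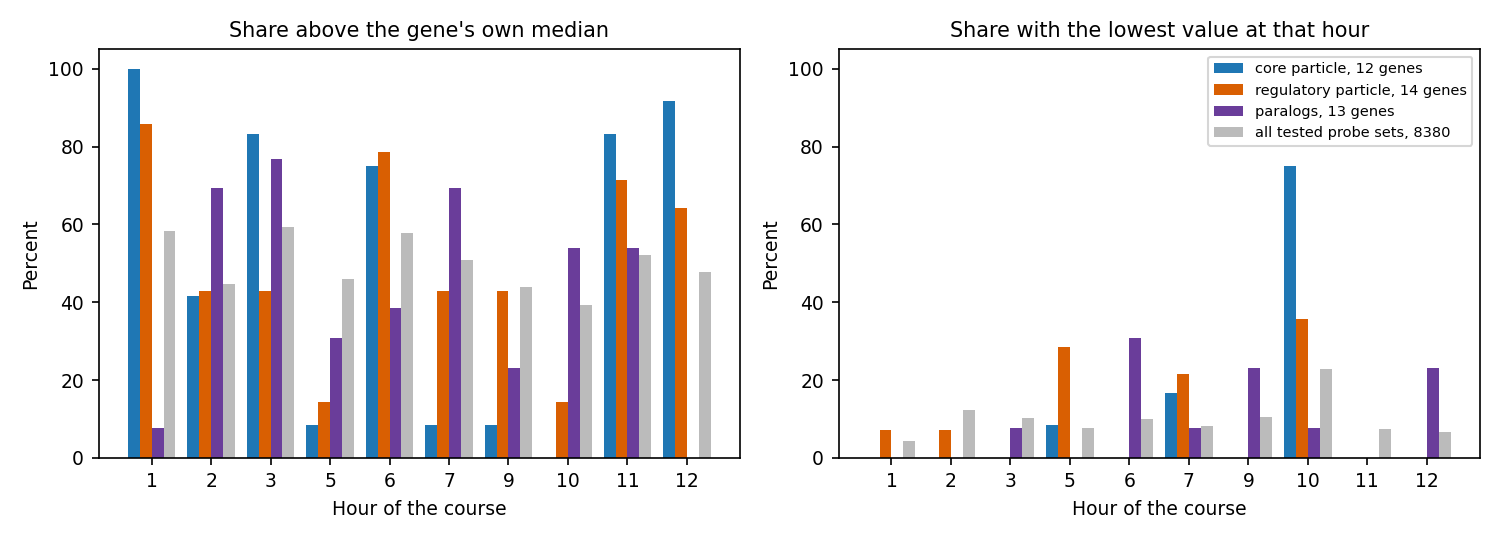
Percent of genes above their own median (left) and percent with their lowest value (right) at each hour, for 12 core genes, 14 regulatory genes, 13 paralogs and all 8380 tested probe sets. Core genes are all above their median at hour 1 and none is at hour 10, where 9 of 12 have their lowest value beside 22.7% of all tested probe sets.

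The hour 10 array held the lowest value for 9 of 12 core genes, 3 of 4 Rpt genes and 2 of 10 Rpn genes, 14 of 26 in all, beside 22.7% of all tested probe sets. The median core gene differed there by -0.24 (log2) from the median of the other 9 arrays, and the median regulatory gene by -0.13. No member was 1.5-fold lower on that array, beside 0.852% of probe sets at hour 10. The count depended on how the arrays were scaled: after quantile normalization of the deposited values 5 of 26 were lowest at hour 10, beside 11.6% of all tested, and the core median there was -0.07. After centring each array on its median it was 9 of 26, beside 15.7%. The summed intensity of the female germline markers was lowest at hour 10, at 1627 against 1703 to 2311 on the other arrays, and highest at hour 6. The sum leans on the brightest marker, osk, which read 366 at hour 10, against 414 to 673. Of the 10 named markers 2 were lowest at hour 10, which is near the 19.3% of all probe sets. The dimmest, bcd at 35.9 to 51.2, lay inside the range of the control probe sets. In RNA of whole flies, fewer cells of a type and less RNA per cell cannot be told apart. The part of the germline signal, of the array's Gapdh and eIF4a ratios and of its scaling in the hour 10 values was not tested.

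Most paralog probe sets were dim: for 9 of the 13 the mean lay under the highest control mean of 107, and control values reached 136, so folds over such values have no firm base. The paralogs of the male germline had other high and low arrays than the constitutive genes. At hour 10, 7 of 13 lay above their own median, against 2 of 26 constitutive genes, and at hour 1 it was 1 of 13, against 24 of 26. Over all probe sets, dim ones included as for the paralogs, the shares were 34.9% at hour 10 and 46.2% at hour 1. These differences were not tested. They are not particular to paralogs, since dim second probe sets of constitutive genes showed some of them. That of Prosalpha7 was 0.87 times the median of its other arrays at hour 1 and 1.11 times at hour 10. That of Prosbeta6 was 0.76 times at hour 1 and 0.79 times at hour 10, and both were highest at hour 3. The highest array of the paralogs was hour 3 for 6 of 13, beside 27.9% of all probe sets. Prosalpha3T, the paralog of an alpha subunit found in maturing sperm, read 181 at hour 3, against 86.3 to 129 on the other 9 arrays. Prosalpha6T, another sperm alpha subunit, read 134 at hour 3, against 82.3 to 109. Rpt4R read 141 there, against 73.4 to 99.3, and Rpn12R 139, against 85.6 to 100.5. For each of the 4 the hour 3 value exceeded every other array.

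Of all 39 proteasome genes, 5 exceeded the median of their other arrays by at least 1.5-fold at hour 3, namely Prosbeta6, Rpn3, Prosalpha3T, Prosalpha6T and Rpt4R, beside 6.6% of all probe sets. The count was 2 after quantile normalization, beside 4.6%, and 2 after median centring, beside 5.26%. By Dixon's ratio, 8 of the 39 had 1 array far from its nearest neighbour at any hour, beside 18.2% of all probe sets. The testis markers as a list had a mean log2 deviation of 0.01 at hour 3. It was 0.60 at hour 7, which raises each gene's mean, and -0.10 to -0.05 on the remaining 8 arrays. Their summed intensity at hour 3 was 3185, the highest after hour 7, with 2969 to 3158 on those 8 arrays. Of the 23, 17 were above the median of their other arrays at hour 3 and 6 below it. They lay between 0.707 times for bol and 1.64 times for sa, a meiotic arrest gene of the testis. At that hour 59.3% of all tested probe sets lay above their own median, and only 9 of the 23 were bright enough to be tested. Over all probe sets, dim ones included, the share was 49.6%. Both shares were counted after low values were raised to a floor, and the marker count before. The testis gene nht, a form of a general transcription factor subunit, read 123 against 77.9 to 88.2. Of the 10 female germline markers 4 were above and 6 below, between 0.836 times for osk and 1.13 times for bcd, with a mean log2 deviation of -0.06. The part of these markers in the hour 3 values was not tested.

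The testis markers instead stood out at hour 7, where they averaged 0.60 above their own means on the log2 scale, against -0.10 to 0.01 on the other arrays. Their summed intensity at hour 7 was 5934, against 2969 to 3185 elsewhere, and 10 of 23 passed 1.5-fold. They include Mst84Dd, a structural protein of the sperm tail, at 754. The proteasome paralogs averaged 0.04 at hour 7, and 1 of 13 passed 1.5-fold, beside 0.795% of all probe sets. That gene was Prosalpha4T1, which read 131 at hour 7 and 118 at hour 3, against 77.1 to 108 on the other 8 arrays. Prosalpha4T2, from the same parent subunit, was highest at hour 6, at 151, and read 146 at hour 7 within a span of 126 to 151. The other 12 paralogs lay within 1.5-fold of the median of their other arrays at hour 7.

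**Figure D5:**
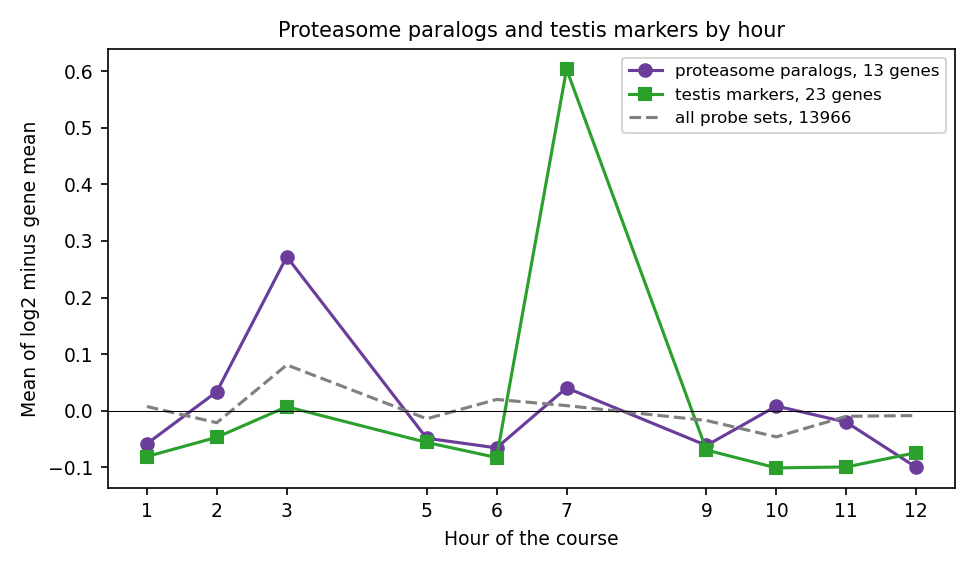
Mean log2 deviation from each gene's own mean by hour for 13 proteasome paralogs (circles), 23 testis markers (squares) and all 13966 probe sets (dashed). The testis markers peak at hour 7, at 0.60, and the paralogs at hour 3, at 0.27, with 0.04 at hour 7.

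Of the remaining paralogs, Prosbeta2R1 read 101 to 127 and Prosbeta2R2 93.4 to 132, with its peak at hour 3, with fitted changes of 0.01 ± 0.10 and -0.18 ± 0.12 (SE, log2). Rpn13R spanned 89.3 to 131 and was also highest at hour 3. Below the intensity needed for a test lay Prosbeta4R1, at 82.3 to 94.5, Prosbeta5R1, at 48.8 to 65.0, Rpt3R, at 36.2 to 47.9, Prosbeta4R2, at 15.2 to 30.0, and Rpt4R. Prosbeta4R1 and Prosbeta4R2 lie almost next to each other in the genome with 1 gene between them. The fitted change was -0.34 ± 0.20 (SE, log2) for Prosalpha4T1, -0.23 ± 0.27 for Prosalpha3T and -0.21 ± 0.18 for Prosalpha6T, each with limma's adjusted p = 0.937. Without the hour 3 array that of Prosalpha3T was 0.02.

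Among genes that feed or assemble the proteasome, 24 of 27 listed ones had a probe set and 20 could be tested. None passed any fit, with 10 fitted changes above 0 and 10 below. The polyubiquitin gene Ubi-p63E, which encodes chains of ubiquitin repeats, was the only one of the 24 whose later arrays all lay above its earlier ones, beside 0.239% of all tested probe sets. It read 3564, 2967, 3329, 3213 and 3589 at hours 7, 9, 10, 11 and 12, against 2954, 2570, 2354, 2841 and 2267 at hours 1, 2, 3, 5 and 6. The gap was narrow, since hour 9 exceeded hour 1 by little. The difference was 0.36 ± 0.08 (SE, log2), with an unadjusted p of 0.000894 and an adjusted p of 0.345 in limma. None of the 39 proteasome genes had later arrays all above the earlier ones, beside that 0.239%, or all below them, beside 1.25%.

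A second polyubiquitin gene, Ubi-p5E, read 4750, 4494, 4712, 4696 and 4938 at the later hours, against 4317, 4155, 4289, 4548 and 4152 at the earlier hours. These overlap at 2 arrays, and the difference was 0.14 ± 0.04 (SE, log2; limma adjusted p = 0.517). The name of the Ubi-p5E probe set ends in _f_at, the mark for probes shared within a gene family. Its signal may therefore include Ubi-p63E or other ubiquitin genes, and their part in it was not tested. RpL40, a ribosomal protein gene fused to ubiquitin, had a fitted change of -0.07 ± 0.06. The gene cnc, whose mammalian relative NRF1 switches on proteasome genes, had -0.16 ± 0.11 (SE, log2; limma adjusted p = 0.937 for both).

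Of the 20 tested pathway genes, 8 were lowest at hour 10, beside 22.7% of all tested probe sets. After quantile normalization it was 5, beside 11.6%, and after median centring 4, beside 15.7%. By list, with dim genes included, 3 of 6 assembly factors, activators and inhibitors, 2 of 2 proteasome-bound deubiquitinases, 2 of 4 ubiquitin genes, 2 of 7 shuttle and p97 genes, 1 of 3 transcription factors and 0 of 2 genes of the spermatid ligase were lowest there, beside 19.3% of all probe sets. Ubi-p63E and Ubi-p5E were at 1.13 and 1.05 times the median of their other arrays. Pomp, the chaperone that matures the core particle, read 129 at hour 10, against 136 to 203 on the other arrays, and Usp14, a deubiquitinase bound to the regulatory particle, read 189, against 204 to 238. Among 15 named cytosolic chaperones, 7 were lowest at hour 10, beside the same 19.3%. The 7 include Hsp68, which at 43.5 to 80.4 lay inside the range of the control probe sets. No count after rescaling is given for the chaperones.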

How the data were processed

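Whole-animal RNA, extracted with Trizol, went onto 1 Affymetrix array per hour. The deposited values are linear intensities that the authors had normalized in dChip, per the labels. Neither the version of dChip nor its handling of mismatch probes is stated there. An intensity compares 1 probe set between arrays, not 2 probe sets with each other. The scaling can remove a change shared by most transcripts, and it also left differences in level between arrays. The median intensity ran from 111 at hour 10 to 120 at hour 3. The number of arrays limits the precision.

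Of 14010 probe sets, 44 controls were left out. Symbols were brought up to date through the Release 6 gene table. Intensities under the 20th percentile, 57.2, were set to it before taking log2, which understates changes of dim genes. Probe sets whose mean reached the 40th percentile, 93.8, were tested, 8380 in all. The p-values were adjusted over these 8380, not over the proteasome genes alone. Tests were run with limma 3.58.1 in R 4.3.3 (lmFit, eBayes with an intensity trend, Benjamini-Hochberg adjustment at 0.05): a linear trend over the hours, given as the change over 11 hours, hours 7 to 12 against 1 to 6, and a spline. Since each hour has 1 array, p-values measure only scatter around the fitted line or within each part of the course. Single arrays were set against the median of the other 9 with a threshold of 1.5-fold and no test. The code was tested on simulated data.

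Named in full were members passing a fit, all paralogs, and in each class the genes with the largest and smallest range and the smallest p. The members and gene lists were chosen with earlier results of these data known. Alternatives changed the floor, filter, normalization, moderation, curve and split, and left out each array. No coordinates and no sequences are shown, and the order of neighbouring genes was taken from the gene table.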

Additional observations from a re-analysis of the deposited data

Results flagged for a closer look

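For 8 of the 39 proteasome genes, 1 array lay so far from the other 9 that the gap to its nearest neighbour, as a share of the whole range, exceeded Dixon's 95% limit for 10 values. Chance gives this for about 1 in 20 genes, and 18.2% of all probe sets met it in these data. Of the 8, 6 were high at hour 3: Prosbeta6 at 1075, Rpn3 at 616, Prosalpha3T at 181, Prosalpha6T at 134, Rpn12R at 139 and Rpt4R at 141. Rpn5 was high at hour 10, at 1256, and Rpn1 was low at hour 7, at 294. Over all probe sets that met this limit, 66.6% were high at hour 3, so the members' count and hour are near those of the whole array.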

How the results depend on the processing

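The number of members passing each fit was 0 under every alternative run. No paired analysis was possible because there is 1 group with 1 array an hour. Of the results that answer a comparison, 301 recomputed values were counted as the same, 11 moved and 10 counts no longer held. A value counted as the same could still differ, even in sign. The regulatory median trend of -0.016 was 0.045 under quantile normalization and 0.027 under median centring. The core median trend of -0.11 was -0.026 and -0.069. Of the values of single genes, 469 kept their direction and 23 did not. The median fitted change of the tested paralogs, -0.18, was -0.070 with the filter at the 60th percentile, -0.047 without the arrays of hours 3 and 10, and -0.33 to -0.023 with 1 array left out at a time. With 1 array left out, the core median trend lay between -0.22 and -0.05 and the regulatory one between -0.07 and 0.04. Quantile normalization gave single-array medians of 0.055 for the regulatory genes at hour 2, against -0.027 as deposited. At hour 3 it gave -0.13 for the core, against 0.077 as deposited, and -0.19 for the regulatory genes, against -0.024. Median centring gave the regulatory genes -0.10 at hour 3. Under quantile normalization the regulatory median at hour 6 was -6.5e-05, against 0.072 as deposited. At hour 10 quantile normalization gave -0.070 for the core and -0.046 for the regulatory genes, against -0.24 and -0.13. It left 5 constitutive and 3 core genes lowest at hour 10, 2 members past 1.5-fold at hour 3 and 13 constitutive genes above their own median at hour 6, and median centring left 9 constitutive genes and 2 members. Of the tested pathway genes lowest at hour 10, 8 as deposited, quantile normalization left 5 and median centring 4. A 2-fold threshold left 0 members at hours 3 and 7. Fitted changes that crossed 0 were Prosalpha4 at 0.049, Rpt3 at 0.037 and Rpn8 at 0.039 under quantile normalization, at 0.0072, 0.025 and 0.028 under median centring, and Prosalpha4 at 0.0055, Rpt3 at 0.051 and Rpt5 at 0.020 without hours 3 and 10. With 1 array left out, the fitted change ranged over -0.13 to 0.034 for Prosalpha4, -0.12 to 0.087 for Rpt3, -0.15 to 0.049 for Rpt2, -0.047 to 0.040 for Rpn8, -0.035 to 0.065 for Prosbeta2R1, -0.091 to 0.23 for Rpt4 and -0.46 to 0.016 for Prosalpha3T. The causes were not tested. Leaving out hours 3 and 10 together, and rescaling the counts at hours 3, 6 and 10, were chosen after seeing the data.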
